A study of Mus musculus with 6 samples.

Results

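MARIO joins RNA fragments that are held together by protein in living cells, and most of what it is used for concerns contacts between different RNAs. The read pairs described here are instead those in which both fragments came from exons of the same protein-coding gene, at places far apart in that gene. They are called loops here. A loop is a distinct pair of coordinates for which both fragments carried the type protein_coding, the same gene name and a region label of utr5, exon or utr3, and for which the genomic starts of the fragments lay more than 2000 bp apart. In the ES libraries, ES-1 held 280 loops from 1816 of its 3230403 read pairs, ES-2 held 104 loops from 120 of 1312314, and ES indirect held 2414 loops from 6287 of 3302146. The series as a whole lists 10479650 read pairs in 6 libraries, so loops were a small part of it. Read pairs of the same loop share all fragment ends, and whether they came from separate molecules was not tested. In 100 loops of ES-1, 9 of ES-2 and 791 of ES indirect RNA1 had 90 nt and RNA2 100 nt. The files do not show whether such pairs held a linker, so those that lie close in the mRNA with RNA1 upstream cannot be told apart from continuous, unligated mRNA and may be no loops at all. Of the pairs of these lengths 13 in ES-1, 0 in ES-2 and 124 in ES indirect had RNA2 upstream, which is not the order of an intact mRNA. Part of the 124 came from the repeat genes Ahnak and Ahnak2, where the place of a fragment is uncertain. Over all lengths RNA2 was upstream in 1029 loops of ES indirect, and in 982 without both genes. The shares of region pairs and of order are also given without the pairs of these lengths, whereas counts per gene and rates of gene groups keep them. The rule sets the genes and the genomic distance, but not which regions are joined or which fragment comes first, and it sets the distance in the spliced mRNA only where no intron lies between the fragments.

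All 3 libraries came from E14, a feeder-free mouse embryonic stem (ES) cell line of strain 129/Ola, grown undifferentiated with LIF. ES-1 and ES-2 were crosslinked by ultraviolet light of 254 nm, which joins RNA to the protein that touches it, and their RNA was cut by RNase I to about 1000 nt according to the labels, although a wider size range is given for ES-1 in the study's methods. For ES indirect, formaldehyde and EGS served as crosslinkers, so that proteins are also joined to each other, and the RNA was sheared by sonication to about 1000 nt. Ribosomal RNA was depleted by the GeneRead kit in ES-2, whereas both other libraries relied on a duplex-specific nuclease. ES-1 and ES-2 are separate assays and form 1 group of 2 libraries, and ES indirect has no replicate. A comparison of 2 libraries with 1 cannot give an exact permutation p below 0.333, so no p is given between the crosslinking methods, and shares are printed with 95% Wilson intervals that cover counting error only. Loops of 1 gene are not independent of each other, so the intervals are too narrow where a few genes supply many loops.

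An mRNA carries a cap at its 5′ end, a 5′ untranslated region (5′ UTR), a coding sequence, a 3′ untranslated region (3′ UTR) and a poly(A) tail. In the closed-loop model of translation the cap-binding factor eIF4E and the poly(A)-binding protein are bridged by the scaffold eIF4G, which brings both ends of the mRNA together, while base pairing and packing by RNA-binding proteins can bring other distant stretches into contact. A chimeric molecule of MARIO has the form RNA1–linker–RNA2, in which the 3′ end of RNA1 and the 5′ end of RNA2 face the linker.

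The cells carried the markers of ES cells. All 11 ES cell markers had exonic fragments in each library, with a summed level of 5.93 per 1000 exonic mRNA fragments in ES-1, 2.59 in ES-2 and 5.80 in ES indirect. Of 8 fibroblast markers 7, 6 and 7 had fragments, with sums of 0.179, 0.199 and 0.0432 per 1000. Of 7 markers of neurons and glia 4, 3 and 4 had fragments (0.0557, 0.144 and 0.0760 per 1000), and of 7 markers of extra-embryonic and blood cells 5, 3 and 2 (0.139, 0.120 and 0.0104 per 1000). Gfap, Map2 and Hbb-b1 were at 0 in all 3 libraries. Both fragments of a loop lay on the strand of their gene in 98.2% of loops in ES-1, 99.0% in ES-2 and 98.8% in ES indirect, and both deposited sequences matched the mouse genome NCBIM37 (mm9) at the stated place, with at most 15% mismatches, in 100%, 98.1% and 99.5%. Loops were thus read from mRNA strands and at the places that the files give.

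The sequences below show the sides of 10 loops that faced the linker, and they were chosen because the results turn on them. Itga3, Fem1b, Morn4, Tet1 and Arl13b had loops from 5′ UTR to 3′ UTR that took in most of the transcript, Spry2 had a similar loop in a short mRNA, Camk2n1 had the corresponding loop of ES-2, Nanog is a defining gene of ES cells, and the loops of Huwe1 and Esrrb held long complementary runs. Each line gives 30 bases of NCBIM37, 5′ to 3′ along the RNA, as the last 30 bases of RNA1 or the first 30 bases of RNA2. Capitals mark the longest run of Watson-Crick complementarity between the 30 bases of RNA1 and of RNA2. The reads differed from the genome at no more than 1 base in each stretch.
Itga3 RNA1, utr5, chr11:94937876-94937905, minus strand: gagctcggaacggtgacccgTCCACcgaac
Itga3 RNA2, utr3, chr11:94905927-94905956, minus strand: agcaGTGGAggctgatttcccaggtcctct
Fem1b RNA1, utr5, chr9:62659239-62659268, minus strand: ccctccctGGGTCgcgctgctgcctggaca
Fem1b RNA2, utr3, chr9:62639977-62640006, minus strand: aatctggccttaacctactggcagGACCCt
Morn4 RNA1, utr3, chr19:42149535-42149564, minus strand: ccaggtcccatCCTCCAatctctctcaaca
Morn4 RNA2, utr5, chr19:42160787-42160816, minus strand: tgtggctgaggcgggTGGAGGtggcggagg
Tet1 RNA1, utr5, chr10:62342785-62342814, minus strand: ggaccaaTGACActgtgccccgcatccttg
Tet1 RNA2, utr3, chr10:62269286-62269315, minus strand: aggagcttactccaTGTCAcacagcaagtc
Arl13b RNA1, utr5, chr16:62846702-62846731, minus strand: accccgcgatctgTCCGGGTCaccgccctc
Arl13b RNA2, utr3, chr16:62794070-62794099, minus strand: atttgagctccttgGACCCGGAtcagtcag
Spry2 RNA1, utr3, chr14:106291717-106291746, minus strand: acagaaGTTGGAgacccacattgcataagc
Spry2 RNA2, utr5, chr14:106295977-106296006, minus strand: atcccggaatccgggagggtTCCAACggtg
Camk2n1 RNA1, utr5, chr4:138010293-138010322, plus strand: cgcctcgctttcaGCCTGggctggcattct
Camk2n1 RNA2, utr3, chr4:138012849-138012878, plus strand: ttgtgtctcaagtCAGGCcgggagacagat
Nanog RNA1, utr3, chr6:122664167-122664196, plus strand: ctctaggctttggAGACagtgaggtgcata
Nanog RNA2, utr5, chr6:122657801-122657830, plus strand: atgagtgtggGTCTtcctggtccccacagt
Huwe1 RNA1, exon, chrX:148358114-148358143, plus strand: GGTCAAAGGgcgcggagacagcaacaagca
Huwe1 RNA2, exon, chrX:148367504-148367533, plus strand: ttgcgttCCTTTGACCaagcagaccgtgcc
Esrrb RNA1, utr3, chr12:87862333-87862362, plus strand: tccaaGCCCATGGAacagcaccaaagagaa
Esrrb RNA2, utr3, chr12:87860241-87860270, plus strand: tttttccttcTCCATGGGCagtgctaaggc

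Loops joining a 5′ UTR to a 3′ UTR, as the authors' labels have it, were few. They made up 4 of 280 loops in ES-1 (1.43%, interval 0.557 to 3.61%), 4 of 104 in ES-2 (3.85%, 1.51 to 9.47%) and 58 of 2414 in ES indirect (2.40%, 1.86 to 3.09%). The mean of the ES libraries was 2.64% ± 1.71 (SD, n = 2), and the value of ES indirect lay within that spread. Exonic read pairs between mRNAs of different genes offer a comparison from the same libraries. Among them the combination of utr5 and utr3 made up 8.48% of 3704 distinct pairs in ES-1 (7.62 to 9.42%), 10.9% of 4670 in ES-2 (10.02 to 11.8%) and 4.56% of 7451 in ES indirect (4.11 to 5.06%). In each of the 3 libraries the share among loops was below that between genes and the intervals did not overlap, with 9.47 against 10.02% the closest. Among loops with at least 300 nt between the fragments in the spliced mRNA the shares were 1.18% in ES-1 (0.323 to 4.19%), 5.48% in ES-2 (2.15 to 13.3%) and 3.65% in ES indirect (2.76 to 4.82%). The intervals of ES-2 and ES indirect then overlapped those between genes, and that of ES-1 did not. The comparison changed again where pairs of 90 and 100 nt, which were 47.7% of the between-gene pairs of ES indirect, were left out on both sides, a choice made after seeing the data. Loops of at least 300 nt then joined utr5 to utr3 in 0.714% in ES-1 (0.126 to 3.93%), 4.48% in ES-2 (1.53 to 12.4%) and 3.69% in ES indirect (2.74 to 4.95%), against 9.74% (8.75 to 10.8%), 11.04% (10.2 to 11.98%) and 8.06% (7.24 to 8.95%) between genes. The share among loops was the lower in each library, and only the intervals of ES-2 overlapped. Read pairs within a gene whose starts lay 2000 bp or less apart joined utr5 to utr3 in 0.151%, 0.186% and 0.228% of cases, below the interval of the loops in each library. The limit of 2000 bp itself restricts pairs that could reach both UTRs of a gene, so no conclusion is drawn from that difference.

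Most loops joined fragments of the same region class. The share was 77.1% in ES-1 (71.9 to 81.7%), 66.3% in ES-2 (56.8 to 74.7%) and 70.2% in ES indirect (68.3 to 72.0%), with a mean of 71.7% ± 7.63 (SD, n = 2) over ES-1 and ES-2. Between genes it was 46.2%, 39.4% and 62.3%, below the interval of the loops in every library. For loops of at least 300 nt in the mRNA the share was 71.8% in ES-1 and 58.9% in ES-2, still with intervals above the share between genes, but 59.5% in ES indirect (56.8 to 62.2%), below the 62.3% between genes and with overlapping intervals. Without pairs of 90 and 100 nt on either side it was 74.3%, 61.2% and 58.4% (55.5 to 61.3% in ES indirect) against 41.4%, 38.6% and 45.2% (43.7 to 46.8% in ES indirect) between genes, so loops of at least 300 nt were then above the between-gene pairs in each library, with no overlap of intervals. Coding sequence with coding sequence (exon-exon) was the most common class, at 186 loops (66.4%) in ES-1, 60 (57.7%) in ES-2 and 1373 (56.9%) in ES indirect. Loops within the 3′ UTR numbered 20, 5 and 212, and those within the 5′ UTR 10, 4 and 109.

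Of the classes that cross from one region to another, exon to 3′ UTR was the largest in each library. It held 34 loops in ES-1 (12.1%, 8.82 to 16.5%), 16 in ES-2 (15.4%, 9.70 to 23.5%) and 410 in ES indirect (16.98%, 15.5 to 18.5%), with a mean of 13.8% ± 2.29 (SD, n = 2) for the ES libraries. Between genes the same class made up 27.2%, 19.7% and 22.0% of pairs. The share among loops lay below the interval of the between-gene pairs in ES-1 and ES indirect, and the intervals overlapped in ES-2. This order did not hold for loops of at least 300 nt in the mRNA, of which the class made up 18.2% in ES-1 (13.2 to 24.7%), 19.2% in ES-2 (11.8 to 29.7%) and 26.03% in ES indirect (23.7 to 28.5%). In ES indirect the share then lay above that between genes, and in ES-1 it stayed below. Without pairs of 90 and 100 nt on either side the direction in ES indirect turned back, with 26.7% (24.2 to 29.4%) of loops of at least 300 nt against 31.2% (29.7 to 32.6%) between genes. In ES-1 the values were 16.4% against 28.8%, with no overlap of intervals, and in ES-2 19.4% against 19.8%, with overlap. The class from 5′ UTR to exon held 26 loops in ES-1 (9.29%), 15 in ES-2 (14.4%) and 252 in ES indirect (10.4%). Between genes it made up 18.2%, 30.02% and 11.2%, and here the intervals overlapped in ES indirect alone. Without pairs of 90 and 100 nt they did not overlap there either, with 12.2% of loops (10.7 to 13.9%) against 15.6% between genes (14.5 to 16.7%).

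**Figure D1:**
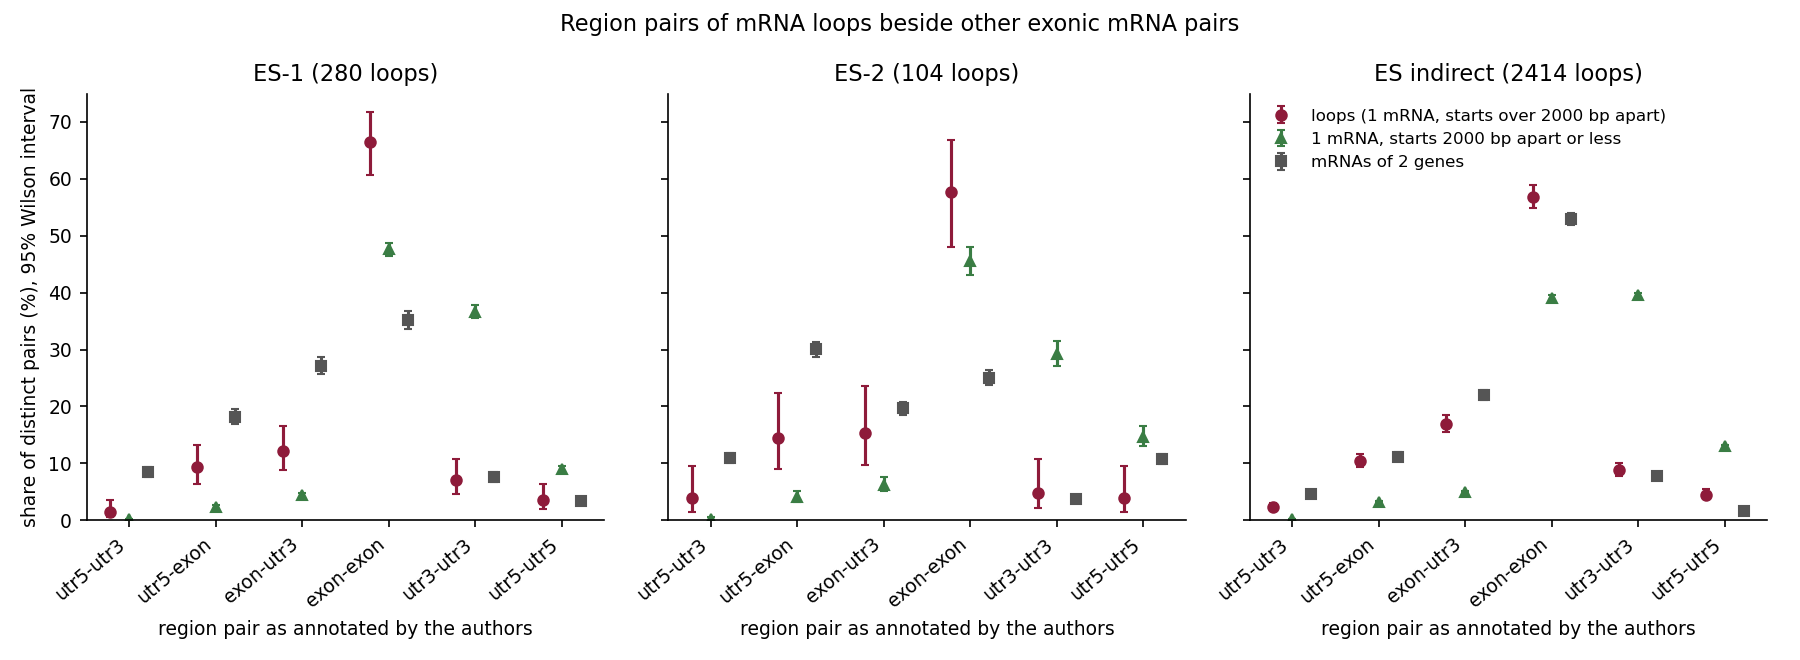
Share of distinct pairs (vertical axis, %, 95% Wilson interval) in each region pair (horizontal axis) for ES-1, ES-2 and ES indirect. Circles are loops, triangles are pairs within 1 mRNA with starts 2000 bp apart or less, and squares are pairs between mRNAs of different genes; exon-exon is the largest class of loops (66.4%, 57.7% and 56.9%), and utr5-utr3 lies below the between-gene pairs in all 3 panels.

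The labels utr5 and utr3 depend on the transcript that an annotation picks, and a second annotation gave fewer such loops. Each fragment was placed by its midpoint in the GENCODE vM1 transcript with the longest coding sequence that held both fragments. That choice favours coding span over UTR where the transcripts of a gene differ, so the fall in number depends on it. Of the fragments labelled utr5 in the deposited files 43.0% over the 3 libraries together fell in the 5′ UTR of that transcript (28.3% in ES-1, 59.3% in ES-2 and 43.6% in ES indirect) and 54.4% in its coding span, whereas 75.1% of those labelled utr3 fell in its 3′ UTR and 99.9% of those labelled exon in its coding span. Loops from 5′ UTR to 3′ UTR then numbered 0 of 269 in ES-1, which allows a share of up to 1.12%, 1 loop in ES-2 (0.990%) and 28 of 2213 in ES indirect (1.27%, 0.877 to 1.82%). Of the 66 loops labelled utr5 and utr3 in the files, 57 had such a transcript, and 29 of these kept both regions, 19 became exon to 3′ UTR, 5 became 5′ UTR to exon and 4 became exon to exon.

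The 29 loops that kept both labels came from 27 genes. The distance between their midpoints along the spliced transcript ran from 420 to 12157 nt with a median of 1668 nt, and they took in from 24.0 to 95.1% of the transcript, with a median of 66.7%. In ES indirect RNA1 was the upstream fragment in 14 of 28 and RNA2 in the other 14, and in the loop of ES-2 it was RNA1. Only 4 of the 29 had fragments of 90 and 100 nt, a combination of lengths that is taken up below.

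The genes with most such loops in ES indirect were Ndufa10, Phf20 and Zfp94, with 2 each, and each further gene had 1. The Ndufa10 loops, in the mRNA of a subunit of mitochondrial complex I, differed by 1 nt in their ends, spanned 1347 and 1348 of 2020 nt and rested on 1 and 2 read pairs, so they mark 1 contact. The Zfp94 loops, in a zinc finger gene, likewise lay at 1 place, spanned 1668 and 1669 nt and rested on 3 read pairs and 1. The Phf20 loops, 2248 and 257 nt long, lost their 5′ UTR label in GENCODE, where the upstream fragments lay in the coding span.

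Arl13b, which encodes a GTPase of the ciliary membrane, had a loop of 2847 of 3528 nt on 3 read pairs, from 121 nt behind the start of the transcript to 560 nt before its end. In Brd2, a chromatin reader with bromodomains, the loop spanned 3799 of 4483 nt and rested on 1 read pair. Anapc11, the RING subunit of the anaphase-promoting complex, had 7 read pairs for a loop of 541 of 962 nt, but with fragments of 90 and 100 nt and RNA1 upstream. Atxn1l had 1 read pair for 3019 of 7526 nt. Arhgap21, Bcas3 and A830080D01Rik had spliced distances of 113, 504 and 610 nt, and none of these 3 kept both labels in GENCODE. The Arhgap21 loop also had fragments of 90 and 100 nt and RNA1 upstream.

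Other genes were chosen after their values were seen, for the share of the transcript that their loops took in. The loop of Itga3, the integrin subunit alpha 3, had its midpoints from 118 nt behind the start to 115 nt before the end of a 4710 nt transcript, took in 95.1% of it and had 7 read pairs. That of Fem1b, a substrate receptor of a ubiquitin ligase, took in 92.1% of 6488 nt, that of Supt6h, a histone chaperone of transcription elongation, 88.7%, and that of Morn4 88.2% of 1816 nt. Fem1b and Supt6h rested on 1 read pair each and Morn4 on 2. Tet1, an enzyme that oxidises methylated cytosine in DNA, had the longest spliced distance among these loops, 12157 of 14369 nt, and it rested on 1 read pair. Among the loops that took in at least 80% of the transcript, Itga3 with 7 and Lrfn3 with 4 had the most read pairs, and the others had 1 to 3.

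In the ultraviolet libraries the loops labelled utr5 and utr3 came from Esrrb, Kdm5b, Rab25 and Sema6a in ES-1 and from Camk2n1, Maz, N4bp1 and Slc4a7 in ES-2. Camk2n1, an inhibitor of a calcium-dependent kinase, kept both labels, with 1201 of 4444 nt between the fragments and 1 read pair. Slc4a7, a bicarbonate transporter, and N4bp1 had spliced distances of 3652 and 2559 nt, and their 5′ fragments lay in the coding span of GENCODE. The N4bp1 loop had fragments of 90 and 100 nt with RNA1 upstream. The Esrrb loop, in the mRNA of a nuclear receptor of the pluripotency network, had 2 read pairs and 793 nt, and that of Sema6a 8 read pairs and 119 nt, both with fragments of 90 and 100 nt. The fragments of Kdm5b and Maz both fell in the coding span, and no GENCODE transcript held both fragments of Rab25. None of the 8 genes had such a loop in more than 1 library.

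**Figure D2:**
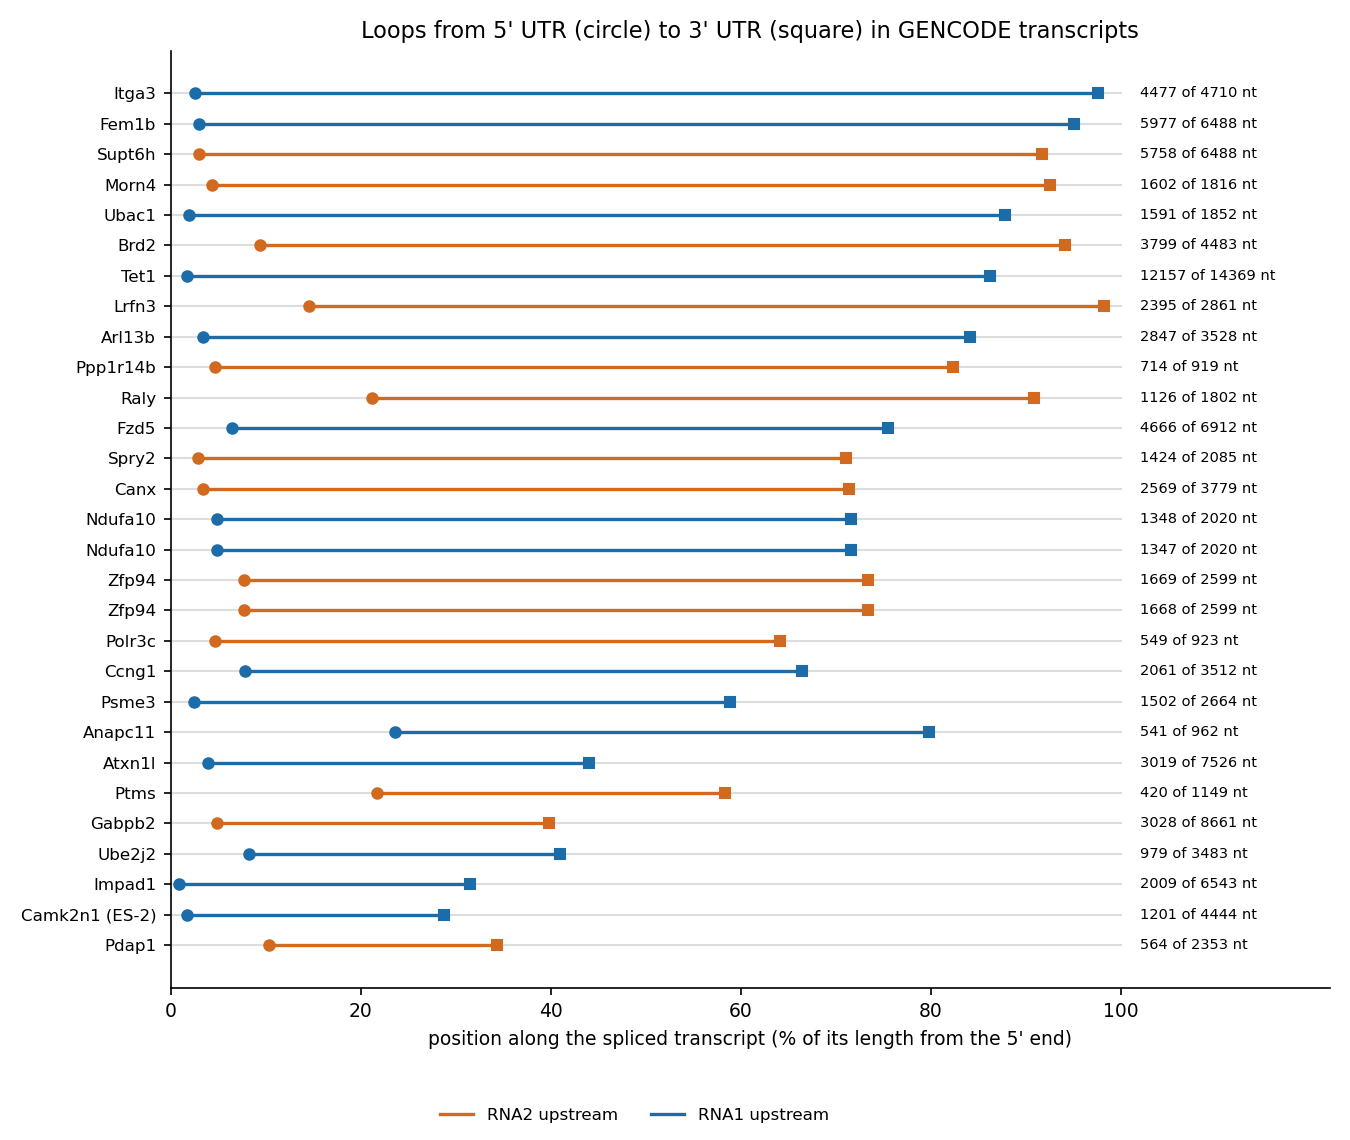
The 29 loops from 5′ UTR (circles) to 3′ UTR (squares) with both regions in the GENCODE vM1 transcript, placed along that transcript (horizontal axis, % of its length from the 5′ end) and ordered by the share taken in. Colour gives which fragment was upstream (14 RNA2, 15 RNA1), the text on the right gives the spliced distance (the shortest over all transcripts, which in Raly, Fzd5, Ube2j2 and Zfp94 is another transcript than the one drawn) and the length of the transcript drawn, and all loops are from ES indirect but that of Camk2n1.

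The genomic distance in the rule said little about the distance in the mRNA, because introns are counted in the first and absent from the second. The median genomic distance was 5221 bp in ES-1, 5574 bp in ES-2 and 4990.5 bp in ES indirect. Along the spliced transcript, which could be measured for 269 loops of ES-1, 2238 of ES indirect and nearly all of ES-2, the median was 625 nt (quartiles 148 and 1505), 834 nt (276 and 1456) and 425 nt (140 and 1264). The fragments lay under 300 nt apart in 36.8%, 27.7% and 42.5% of these loops, and in neighbouring exons in 36.1%, 24.8% and 41.4%. Those loops are distant in the genome and close in the mRNA.

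The region classes differed in this distance. In ES indirect the median was 250 nt for exon-exon, 406 nt for 5′ UTR to exon, 1149 nt for exon to 3′ UTR, 1424 nt for 5′ UTR to 3′ UTR, 146 nt within the 5′ UTR and 2218 nt within the 3′ UTR. In ES-1 it was 472 nt for exon-exon, 528 nt for 5′ UTR to exon, 1295 nt for exon to 3′ UTR and 2034 nt within the 3′ UTR. In ES-2 it was 541, 1070 and 1056 nt for the first 3 of these and 953 nt within the 3′ UTR, from 5 loops. Where both fragments share an exon, as many pairs in the 3′ UTR do, the minimum of 2000 bp applies to the mRNA itself. Near that minimum the loops with the shortest genomic distance were those of Srebf2 (2001 bp) in ES-1, Bbx (2052 bp) in ES-2 and Mau2 (2005 bp) in ES indirect, and the nearest pairs left out were those of Eif4g3 (1998 bp), Hnrnpm (1992 bp) and Slc24a6 (1999 bp).

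The median position of the upstream fragment was at 27.5% of the transcript in ES-1, 21.2% in ES-2 and 25.6% in ES indirect, and that of the downstream fragment at 52.4%, 52.6% and 46.8%. The median share of the transcript between them was 14.03%, 23.2% and 10.4%. At least 50% of the transcript was taken in by 24 of 269 loops in ES-1, 16 in ES-2 and 217 of 2213 in ES indirect, and at least 80% by 1, 1 and 24. Of the 50 loops of ES indirect that were labelled utr5 and utr3 and could be placed, 30 took in at least 50% of the transcript and 10 at least 80%.

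**Figure D3:**
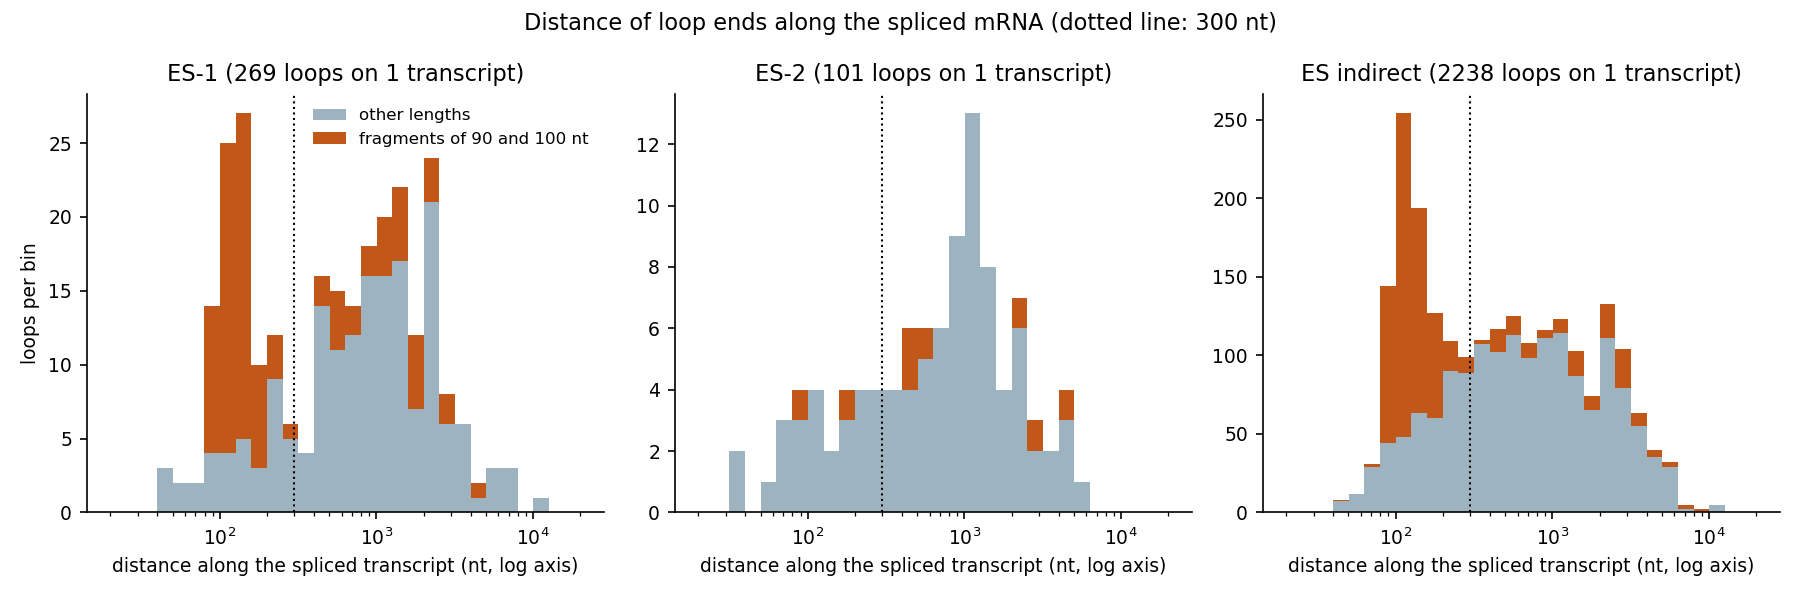
Number of loops (vertical axis) by distance along the spliced transcript (horizontal log axis, nt) in ES-1, ES-2 and ES indirect, with pairs of fragments of 90 and 100 nt in orange and other lengths in grey. The orange pairs gather below 300 nt (dotted line) in ES-1 and ES indirect, and ES-2 has only 9 of them.

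The lengths of the fragments set one kind of loop apart. The most common combination was an RNA1 of 90 nt with an RNA2 of 100 nt, which 100 loops in ES-1 (35.7%), 9 in ES-2 (8.65%) and 791 in ES indirect (32.8%) had. Among pairs within a gene at 2000 bp or less it made up 90.4%, 72.6% and 80.05%, and among pairs between genes 15.4%, 2.03% and 47.7%. In ES indirect the median spliced distance was 125 nt for loops of these lengths with RNA1 upstream, 1255 nt for the fewer with RNA2 upstream and 653.5 nt for loops of other lengths. In ES-1 the values were 140, 983 and 903 nt. Whether these molecules were ligated was not tested. The study's own work on RNA structure removed pairs without linker sequence and pairs in the orientation of an intact RNA, and those filters were not applied here. The first needs the linker, which the files do not show, and in place of the second the loops are given by order.

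Which fragment came first in the gene also differed with the lengths. RNA1 was upstream in 172 loops of ES-1 and RNA2 in 107 (61.6% RNA1, interval 55.8 to 67.2%), in 50 against 53 of ES-2 (48.5%, 39.1 to 58.1%) and in 1378 against 1029 of ES indirect (57.2%, 55.3 to 59.2%). The mean of the ES libraries was 55.1% ± 9.27 (SD, n = 2), so that they did not share a direction. With fragments of 90 and 100 nt less than 300 nt apart in the mRNA, RNA1 was upstream in 61 of 64 loops of ES-1 (95.3%), in both loops of ES-2 and in 523 of 533 loops of ES indirect (98.1%, 96.6 to 99.0%). At 300 nt or more the same lengths gave 22 of 30 in ES-1, 6 of 6 in ES-2 and 74 of 149 in ES indirect (49.7%, 41.7 to 57.6%).

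Loops of other lengths had the opposite order at short range. Under 300 nt RNA1 was upstream in 12 of 35 loops of ES-1 (34.3%, 20.8 to 50.8%), 8 of 26 of ES-2 (30.8%, 16.5 to 49.99%) and 152 of 418 of ES indirect (36.4%, 31.9 to 41.1%), so RNA2 was the upstream fragment in most of these loops in all 3 libraries, although the interval of ES-1 held 50%. From 300 nt to below 1000 nt the shares were 52.5%, 42.9% and 43.3%, and only the interval of ES indirect (39.2 to 47.5%) left out 50%. At 1000 nt or more they were 50.6%, 51.3% and 50%, with intervals that held 50% in each library. For loops over such distances neither order was the more frequent beyond counting error.

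Without the pairs of 90 and 100 nt, RNA1 was upstream in 47.5% of loops in ES-1, 43.6% in ES-2 and 43.998% in ES indirect. The excess of RNA1 over all loops of ES-1 and ES indirect was thus absent without the pairs of those lengths. ES-1 and ES-2 were sequenced on the same 2 flow cells by the read names, and ES indirect on 2 others, so that crosslinking and flow cell cannot be told apart. Within the flow cells RNA1 was upstream in 60.5 and 65.3% of the loops of ES-1, 52.2 and 47.7% of ES-2 and 63.0 and 59.1% of ES indirect, and the share joining utr5 to utr3 was 1.5 and 1.23%, 2.90 and 4.44%, and 2.80 and 2.26%. A loop read on both flow cells is counted in each, so these values are not independent. ES indirect had 1607 and 1814 loops on its flow cells, and 2414 distinct loops in all. Of the loops from exon to 3′ UTR, RNA1 was upstream in 15 of 34 in ES-1, 6 of 16 in ES-2 and 226 of 405 in ES indirect (55.8%, 50.9 to 60.6%). Without pairs of 90 and 100 nt this was 29.2% in ES-1 (14.9 to 49.2%), 33.3% in ES-2 (15.2 to 58.3%) and 51.3% in ES indirect (46.1 to 56.5%).

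**Figure D4:**
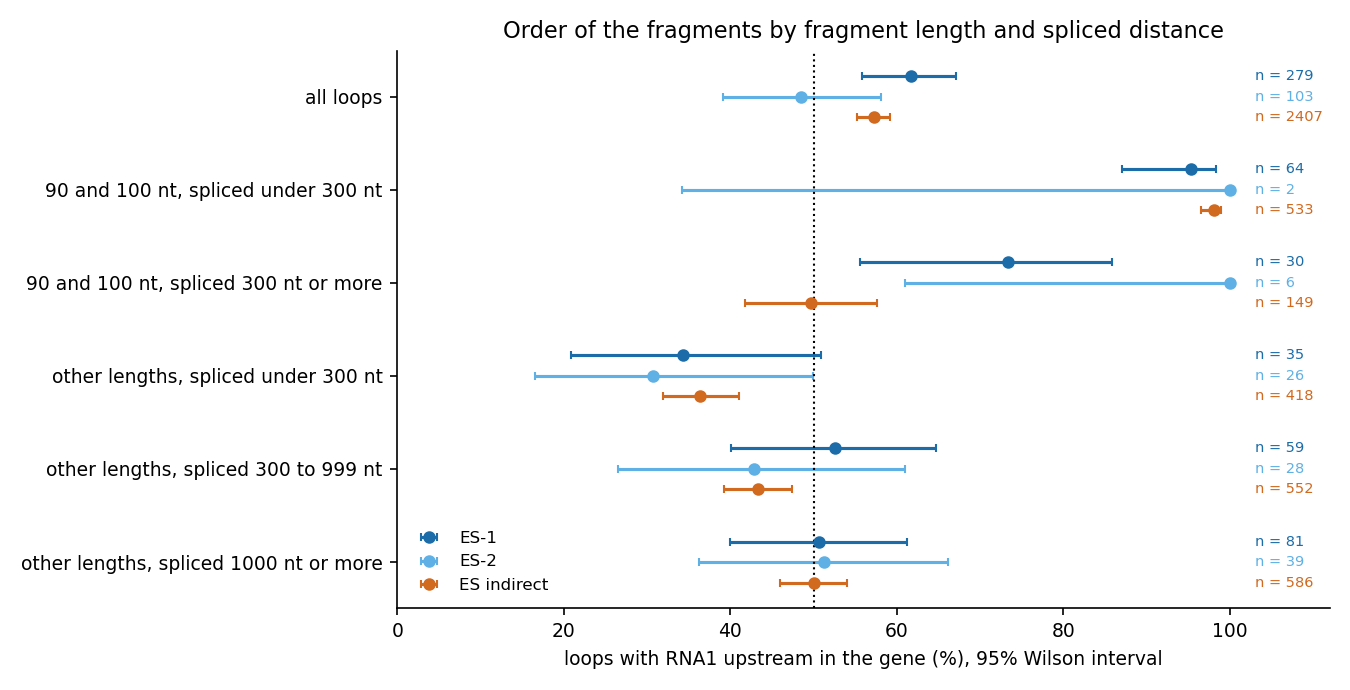
Share of loops in which RNA1 was upstream (horizontal axis, %, 95% Wilson interval) for all loops and by fragment lengths and spliced distance (vertical axis) in ES-1, ES-2 and ES indirect, with the number of loops on the right and 50% as a dotted line. Pairs of 90 and 100 nt under 300 nt stand at 95.3% in ES-1 and 98.1% in ES indirect, other pairs under 300 nt at 30.8 to 36.4%, and pairs of other lengths at 1000 nt or more near 50%.

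Loops were spread over many genes, with 231 in ES-1, 99 in ES-2 and 1621 in ES indirect, and 1811 in all. A single loop was all that 195, 94 and 1202 of these genes had. The 10 genes with most loops held 11.4% of the loops in ES-1, 14.4% in ES-2 and 7.71% in ES indirect. A loop had a mean of 6.49 read pairs in ES-1, 1.15 in ES-2 and 2.60 in ES indirect, and 35.0%, 87.5% and 52.2% of loops had only 1. Among genes with at least 10 exonic fragments, 217 of 6235 had a loop in ES-1 (3.48%), 86 of 3206 in ES-2 (2.68%) and 1559 of 8870 in ES indirect (17.6%). The fragments of the loops count towards the 10, so a gene can pass this limit through its loop.

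Genes with a loop had more fragments and longer mRNAs. Their median number of exonic fragments was 65 in ES-1, 29 in ES-2 and 70 in ES indirect, against 24, 17 and 32 in genes without a loop. The median length of their longest transcript was 4618, 4977 and 4370 nt, against 3635, 3824.5 and 3217 nt. Across genes, which are not independent replicates and share library and depth, Spearman's rho between loops and fragments was 0.18, 0.09 and 0.29, and that between loops and transcript length 0.09, 0.07 and 0.22. Counts of loops in a gene are read below with that in mind.

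Ahnak2 had the most loops, with 3 in ES-1, 2 in ES-2 and 96 in ES indirect. All of them were exon-exon, and 100 had fragments of 90 and 100 nt. Ahnak, a related gene, had 23 loops in ES indirect, all exon-exon and 19 of those lengths, and none in ES-1 or ES-2. Both genes encode giant scaffold proteins built of many near-identical repeats, so a fragment can belong to another copy of the repeat and these loops are uncertain. Without both genes RNA1 was upstream in 57.1% of the loops of ES indirect, against 57.2% with them.

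The genes that followed in ES indirect included several with long mRNAs. Dst, a cytoskeletal linker, had 11 loops, and Tet1 also had 11, with a median spliced distance of 2093 and 2204 nt over the libraries. Brwd1, a reader of histone marks, had 10 loops, 7 of them with fragments of 90 and 100 nt, and Mga, a transcription factor of the MAX network, had 8. Birc6, an inhibitor of apoptosis, Hspg2, the basement membrane proteoglycan perlecan, and the ubiquitin ligase Huwe1 had 7 each, and the chromatin remodeller Chd9 had 6, as did Eef2 and Fn1, among others. The longest GENCODE transcripts of those with 7 to 11 loops run from 9843 nt in Brwd1 to 23285 nt in Dst, while among the genes with 6 loops that of Chd9 has 11565 nt, that of Fn1 8312 nt and that of Eef2 3098 nt.

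In ES-1 Huwe1 had the most loops, 5, but they lay at 2 places, since 4 of them shared the outer ends of both fragments and differed only at the sides facing the linker. The one printed above, with 4 read pairs and a spliced distance of 1544 nt, held the 9 nt complementary run, and the longest run was 4 nt in the other 3. In those with RNA2 from 148367497 and from 148367499 the read differed from the genome at 5 bases of the RNA2 stretch. Their run is one of the genome and may be absent from the read. Genes with 3 loops in ES-1 included 4932438A13Rik, Ccnf, Dst, Eef2, Esrrb, Etl4 and Fn1. Those of 4932438A13Rik rested on 24 read pairs, those of Eef2, the translocase of the ribosome, on 45, and those of Esrrb on 40. Fn1, the matrix protein fibronectin, had 3 loops on 6 read pairs in ES-1 and 6 on 29 in ES indirect. In ES-2 no gene had more than 2 loops.

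The loops of Eef2 mostly reached the 3′ UTR. Of its 9 loops in ES-1 and ES indirect 7 joined coding sequence to the 3′ UTR and 2 joined coding sequence to coding sequence, with spliced distances from 1332 to 2656 nt in a transcript of 3098 nt. The 3 loops of ES-1 spanned 2612, 2253 and 1648 nt with 2, 22 and 21 read pairs, and all had RNA1 upstream, the last 2 of them with fragments of 90 and 100 nt. In ES indirect the 4 loops to the 3′ UTR spanned 2270, 2496, 2656 and 1855 nt with 2, 2, 3 and 3 read pairs, and RNA2 was upstream in all but the first. All Eef2 loops were longer than the median of 425 nt over the loops of ES indirect.

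Hsp90ab1 had exon-exon loops of similar size in each library. They spanned 1369 nt with 1 read pair and 1197 nt with 4 in ES-1, 1328 nt with 1 in ES-2, and 1395 nt with 1 in ES indirect, all in a transcript of 2520 nt, while 2 further loops of ES indirect reached the 3′ UTR over 1627 and 1847 nt. The fragments of these loops lay near each other without overlapping on both sides, so that none counts as shared. In Tet1 the loop of ES-2 spanned 980 nt with 1 read pair, and a loop of ES indirect with an overlapping upstream fragment spanned 944 nt with 2. Another 4 loops of Tet1 in ES indirect joined places 2779 to 5494 nt apart within the 3′ UTR. Tet1 thus had loops within the coding sequence, within the 3′ UTR and from one UTR to the other.

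Esrrb differed between the libraries. Its loop from the region labelled utr5 to the next exon spanned 194 nt in ES-1 and had 37 of the 40 read pairs of the gene there, with fragments of 90 and 100 nt. The loop within the 3′ UTR, printed above, spanned 2068 nt on 1 read pair, and the single loop of ES indirect spanned 307 nt between coding exons on 1 read pair. Pou5f1, which encodes the pluripotency factor Oct4, had loops of 101 and 125 nt with 12 and 13 read pairs and fragments of 90 and 100 nt, and others of 175 and 534 nt with 1 read pair each, in ES indirect. In both genes the loops with most read pairs were therefore short in the mRNA.

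The libraries had more genes than loops in common. ES-1 shared 10 genes with ES-2, which are 4.33% of the genes of ES-1 and 10.1% of those of ES-2. The genes shared by ES-1 and ES indirect were 43.7% of those of ES-1 and 6.23% of those of ES indirect, and ES-2 shared 36 with ES indirect, 36.4% and 2.22%. Over all genes with exonic fragments 1.61% had a loop in ES-1, 0.727% in ES-2 and 10.3% in ES indirect. Among genes with at least 10 fragments it was 3.48%, 2.68% and 17.6%. Genes with a loop also had more fragments, and how far that accounts for the shared genes was not tested. Loops in all 3 libraries were found in 7 genes. These were Ahnak2, the chaperone Hsp90ab1 (2, 1 and 4 loops), the DNA repair enzyme Parp1 (1, 1 and 5), the transcriptional cofactor Hcfc1 (1, 1 and 2), Srebf2, the regulator of cholesterol synthesis (1, 1 and 2), the clathrin heavy chain Cltc (1 each) and the dynein heavy chain Dync1h1 (1 each).

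A loop was counted as shared where both of its fragments overlapped both fragments of a loop in another library, in either order. Of the 280 loops of ES-1, 1 was shared with ES-2 (0.357%) and 5 with ES indirect (1.79%), and of the 104 loops of ES-2, 1 was shared with ES-1 (0.962%) and 1 with ES indirect (0.962%). No pair of libraries listed the same coordinates. The loop in ES-1 and ES-2 was in Pcnxl3, from 5′ UTR to exon over 4404 and 4390 nt, with 34 and 2 read pairs, fragments of 90 and 100 nt and RNA1 upstream in both. Shared loops were thus rare between the replicate assays.

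The loops in ES-1 and ES indirect were in Ap2a1, Igfbp2, Eef2, Lman2 and Ptk7. Ap2a1, a clathrin adaptor subunit, had a loop of 108 nt with 93 read pairs in ES-1 and one of 87 nt with 1 read pair in ES indirect. The loop of Igfbp2, which binds insulin-like growth factors, had 27 and 8 read pairs at 157 and 110 nt. The Eef2 loop joined coding sequence to the 3′ UTR over 2612 nt in ES-1 and 2656 nt in ES indirect, with 2 and 3 read pairs. RNA1 and RNA2 had changed places between the libraries in Ap2a1, Igfbp2, Eef2 and Lman2, and they kept their order in Ptk7. In Ap2a1 and Igfbp2 the ES-1 loop, and in Lman2 the ES indirect loop, had fragments of 90 and 100 nt with RNA1 upstream. Their fragments lay 108, 157 and 94 nt apart, so these loops cannot be told apart from continuous, unligated mRNA. Among the genes with changed places, only Eef2 had no such pair in either library. Rcc2, a chromosome-condensation regulator, was the gene shared by ES-2 and ES indirect, at 129 to 170 nt and in the same order.

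The gene groups were lists of genes by function. Over all genes there were 0.867 loops per 1000 exonic fragments in ES-1, 0.622 in ES-2 and 4.18 in ES indirect, and 1.61%, 0.727% and 10.3% of all genes with exonic fragments had a loop. The groups are set beside these values without a test. Ribosomal protein mRNAs, which are short and abundant, had 0 loops for 5020 fragments in ES-1, which allows up to 0.598 per 1000, 1 loop in ES-2 (0.568 per 1000) and 16 in ES indirect (1.75 per 1000), in 11 of 141 genes. Their longest transcripts had a median of 786.5 nt in ES-1, against 3102 nt over all genes. Among its genes in ES indirect, Rpl3 and Rps3 had 2 loops each. The list goes by symbols and so also took in the Rps6k genes, which encode kinases and held 4 of the 16 loops. Without them ES-1 again had 0 loops (up to 0.617 per 1000), ES-2 had 1 (0.608 per 1000) and ES indirect had 12 (1.37 per 1000). The ribosomal proteins were thus below all genes in ES indirect, and in ES-1 the limit that a count of 0 allows was also below all genes, while the single loop of ES-2 did not place them. Loops of the cytoskeleton were also few, with Tuba1b in ES-1 (0.437 per 1000), none in ES-2, which allows up to 5.26, and Tuba1c in ES indirect (0.287 per 1000).

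Translation factors had 7 loops in ES-1 (0.970 per 1000), none in ES-2, which allows up to 1.40, and 32 in ES indirect (3.79 per 1000), in 19 of 69 genes. Pairs of 90 and 100 nt were 5 of the 7 loops in ES-1 and 14 of the 32 in ES indirect, against 35.7% and 32.8% over all loops. The rate in ES-1 thus rested mostly on such pairs, and its place beside all genes without them was not tested. Eef2 had 3 and 6 loops in ES-1 and ES indirect, Eef1g had 5 in ES indirect, Eif4b 1 and 3, and Eif2c2, which encodes an Argonaute protein and is on the list by its symbol alone, 3 in ES indirect. Of the 10 factors of the closed loop itself, Eif4b and Pabpc1, the poly(A)-binding protein, had loops. Pabpc1 had 2 in ES-1 and 1 in ES indirect, and the group had 1.54, 0 and 2.19 loops per 1000 fragments, of which the 0 of ES-2 allows up to 5.63. Both Pabpc1 loops of ES-1 had fragments of 90 and 100 nt with RNA1 upstream, the order of an intact mRNA. They were 2 of the 3 loops of the group in ES-1, so its rate there rested mostly on such pairs. None of the 4 loops in ES indirect had these lengths. Neither group had a loop from 5′ UTR to 3′ UTR in any of the 3 libraries. Over all loops that class made up only 1.43% in ES-1, 3.85% in ES-2 and 2.40% in ES indirect. At such shares a group with so few loops can lack the class, so its absence does not set these genes apart.

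The pluripotency genes had 4 loops in ES-1 (1.19 per 1000), 2 in ES-2 (2.31 per 1000) and 27 in ES indirect (3.84 per 1000), in 2 of 22, 2 of 20 and 10 of 22 genes with fragments. In ES indirect Tet1 had 11, Pou5f1 4, Trim71 3 and L1td1 3, and in ES-1 Esrrb had 3 and Trim28 1. Loops labelled utr5 and utr3 were in Esrrb in ES-1 and in Tet1 and Nanog in ES indirect. The Nanog loop spanned 1473 of 2211 nt on 1 read pair, and its upstream fragment lay in the coding span of GENCODE. The rate per 1000 fragments lay above that of all genes in ES-1 and ES-2 and below it in ES indirect. The share of genes with a loop lay above in each library, at 9.09%, 10% and 45.5% against 1.61%, 0.727% and 10.3%. That share does not allow for depth, and these genes had many more fragments each. They had 3368 fragments in 22 genes of ES-1 and 7031 in 22 of ES indirect, against 321836 in 14292 and 575505 in 15662 over all genes. Whether the higher share goes beyond depth was not tested, and in ES-1 and ES-2 it rests on 2 genes each. The rates and shares keep pairs of 90 and 100 nt, which were 2 of the 4 loops in ES-1 and 5 of the 27 in ES indirect. Over all loops such pairs made up 35.7% and 32.8% in these libraries. The lower rate in ES indirect may therefore depend on them, which was not tested.

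In the replication and cell cycle group 6 of 11 genes had 11 loops in ES indirect (8.43 per 1000), among them Top2a with 3 and Mcm3, Mcm5 and Mcm6 with 2 each, while ES-1 and ES-2 had none, which allows up to 2.46 and 12.99 per 1000. Glycolysis genes had 5 loops in ES-1 (1.87 per 1000), none in ES-2 (up to 4.11) and 11 in ES indirect (2.28 per 1000), with Pkm2, the pyruvate kinase, at 3 and 4. Chaperones had 5, 1 and 16 loops (1.00, 0.689 and 3.67 per 1000), of which Hsp90ab1 gave 2, 1 and 4. RNA-binding proteins had 0, 1 and 12 (0, 1.05 and 2.03 per 1000, with up to 0.671 allowed in ES-1), of which Hnrnpul1 gave 1 in ES-2 and 4 in ES indirect. With 0 to 7 loops per group in ES-1 and 0 to 2 in ES-2, the order of the groups in these libraries could not be set against that in ES indirect.

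**Figure D5:**
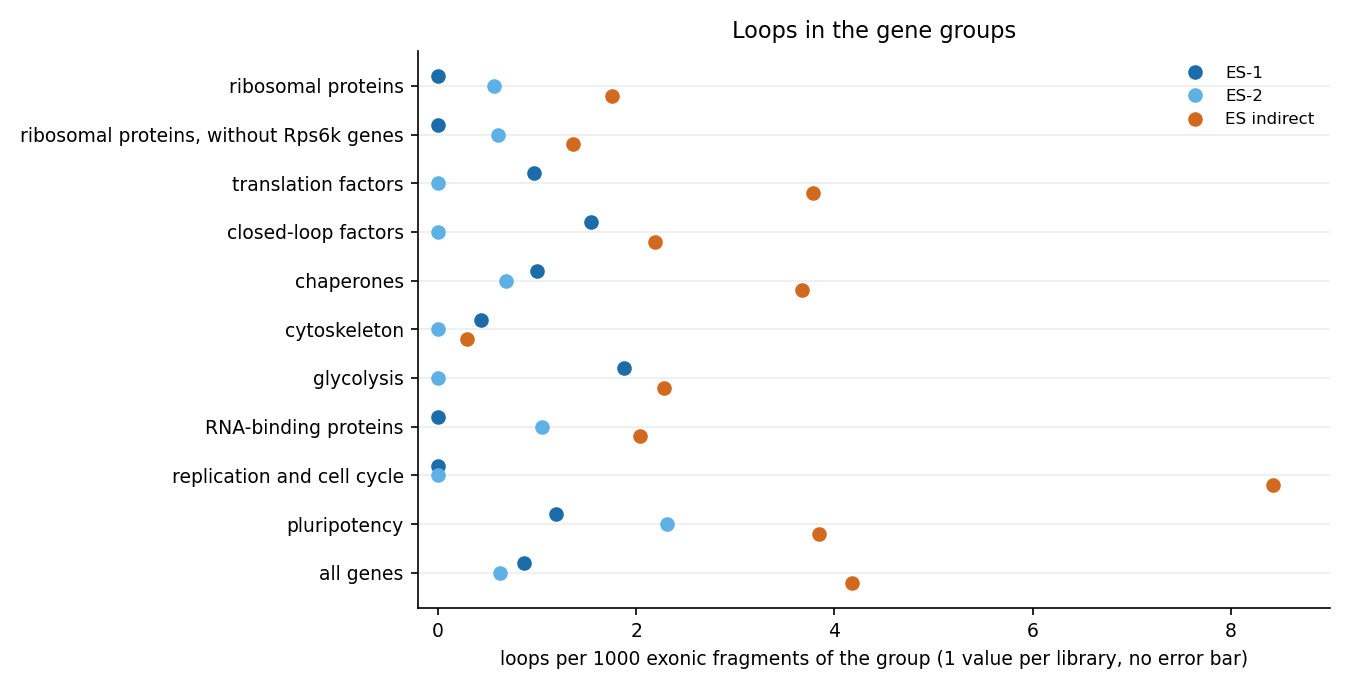
Loops per 1000 exonic fragments (horizontal axis, 1 value per library) for the gene groups and for all genes (vertical axis) in ES-1, ES-2 and ES indirect. All genes stand at 0.867, 0.622 and 4.18, ribosomal proteins stand at 1.75 in ES indirect, or 1.37 without the Rps6k genes, and the replication and cell cycle group is highest in ES indirect at 8.43 from 11 loops.

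Complementarity between the sides that faced the linker was short in most loops. It was measured on the 30 bases of the genome at each side, for pairs with fragments of at least 30 nt and without the combination of 90 and 100 nt. The longest run without a mismatch had a median of 5 nt in 131 loops of ES-1, 53 of ES-2 and 1328 of ES indirect, and of 4, 5 and 5 nt in pairs between genes. A run of at least 8 nt was found in 8 loops of ES-1 (6.11%, 3.13 to 11.6%), 2 of ES-2 (3.77%, 1.04 to 12.8%) and 36 of ES indirect (2.71%, 1.96 to 3.73%). Between genes the shares were 4.11% (3.02 to 5.57%), 12.5% (9.41 to 16.5%) and 2.86% (2.25 to 3.62%), and the intervals overlapped those of the loops in each library. The median predicted energy of the best duplex was -13.2, -17.1 and -12.6 kcal/mol for loops and -13, -15.5 and -13.3 kcal/mol between genes.

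Among the printed loops the run had 9 nt in Huwe1 and Esrrb, 8 nt in Arl13b, 6 nt in Morn4 and Spry2, 5 nt in Itga3, Fem1b, Tet1 and Camk2n1, and 4 nt in Nanog. The predicted energies were -23 kcal/mol for Huwe1, -22.1 for Morn4, -22 for Arl13b and -18.9 for Esrrb. The lowest among the other printed loops was -20.4 kcal/mol for Camk2n1, and the highest was -10.6 kcal/mol for Tet1. Huwe1 and Esrrb were printed because of their runs, so the printed loops do not show how common long runs are.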

How the data were processed

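A deposited file has 1 line for each read pair and no column of measurements. A line gives the place, strand, sequence, RNA type, name and region of RNA1 and RNA2. By the study's methods, the authors removed duplicates by place and random barcode, assigned samples by barcode, found the linker, divided the molecules, kept fragments with a unique place in mm9 and annotated them with the MARIO tools. TopHat2 2.1.1 is named in the submitters' processing notes. Every count is a count of deposited lines or distinct coordinates.

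The members, gene lists and comparisons were chosen with earlier results of these data known. Genes were named by rule, as the 10 with most loops in ES and in ES indirect, all with a utr5 to utr3 loop in ES and the 10 with most in ES indirect, those with a loop in all 3 libraries, up to 4 per gene group and the 5 shared loops with most read pairs. Others are said to be chosen after their values were seen. The gene groups were ribosomal proteins, translation factors, closed-loop factors, chaperones, cytoskeleton, glycolysis, RNA-binding proteins, replication and cell cycle, and pluripotency.

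Coordinates were read as 0-based, are printed 1-based on NCBIM37 and were compared with that genome. The RNA strand of RNA2 is the opposite of the strand listed. Spliced distances are between fragment midpoints, the shortest over GENCODE vM1 transcripts that hold both. Intervals are Wilson intervals at 95%, and a count of 0 is given the limit of 3 counts. Python 3.11.15, SciPy 1.17.1, pysam 0.24.0, samtools 1.23.1 and ViennaRNA 2.7.2 (duplexfold) were used. The placing of fragments was tested on simulated read pairs. MEF and brain were not used here.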

Additional observations from a re-analysis of the deposited data

How the results depend on the processing

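The 4 shares were recomputed by counting every read pair, giving each gene 1 vote, requiring starts over 5000 bp apart, a spliced distance of at least 200 nt, both fragments sense, at least 20 nt long or matching the genome, using GENCODE regions, leaving out the 10 genes with most loops or either ES library, and, chosen after seeing the data, leaving out pairs of 90 and 100 nt, alone or together with a spliced distance of at least 300 nt. Of these values, 67 stayed within the spread of the main value, 23 moved and 6 reversed, and the cause was not tested. For ES the spread is the SD of ES-1 and ES-2, within which either library alone must lie. Leaving out 1 ES library could therefore not count as moved, and its place among the 67 is no sign of stability. The share joining utr5 to utr3 was 0.495% in ES and 1.27% in ES indirect with GENCODE regions, and in ES indirect 3.90% over 5000 bp and 3.26% at 200 nt or more. The share joining exon to utr3 was 17.6% in ES and 24.2% in ES indirect at 200 nt or more, and in ES indirect 13.5% by read pairs, 19.1% with 1 vote per gene, 20.4% over 5000 bp and 21.8% without pairs of 90 and 100 nt. The share within 1 region class in ES indirect was 74.9% by read pairs, 66.8% with 1 vote per gene, 61.0% over 5000 bp, 61.2% at 200 nt or more, 76.0% with GENCODE regions, 68.3% without the 10 genes and 63.0% without pairs of 90 and 100 nt. The share with RNA1 upstream was 66.7% in ES and 72.6% in ES indirect by read pairs. It turned to 45.6% in ES and 43.998% in ES indirect without pairs of 90 and 100 nt, and to 47.4% in ES indirect at 200 nt or more. With both conditions of the last alternative, utr5 to utr3 was 3.69% in ES indirect, exon to utr3 17.9% in ES and 26.7% in ES indirect, and 1 region class 58.4% in ES indirect, and RNA1 upstream fell to the other side of 50% at 49.6% in ES and 46.7% in ES indirect. Leaving out 1 ES library gave 1.43 to 3.85% for utr5 to utr3, 12.1 to 15.4% for exon to utr3, 66.3 to 77.1% within 1 region class and 48.5 to 61.6% with RNA1 upstream, where the lower value, without ES-1, lies on the other side of 50%. No paired analysis was possible because the shares come from no test and the groups compared, ES and ES indirect, share only the number 1, which for ES indirect was given in accession order. With 104 loops in ES-2 and 280 in ES-1, rare classes rest on 4 loops each.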
